A study of Mus musculus with 386 samples.

Results

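The 8 genes described here, Fkbp5, Zbtb16, Tsc22d3, Sgk1, Cdkn1a, Ddit4, Plk3 and Plekhf1, are known targets of the glucocorticoid receptor. They were taken by symbol from 18820 genes measured in mouse brain, kidney, liver and lung. Where a symbol has several transcript clusters (the array's gene-level probe groups), the rule takes the cluster with the highest mean; each of the 8 genes had 1 cluster that carried its symbol alone. No glucocorticoid was given and no hormone level was used here, so the name of the group comes from what is known of the genes and not from these data.

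RNA of whole tissue was hybridised to Affymetrix Mouse Gene 1.1 ST arrays, with 1 array per animal and tissue, in mice 23 days old of both sexes. The mice were of the inbred strains CAST, PWK and WSB, written CASTxCAST, PWKxPWK and WSBxWSB, and of the 6 reciprocal F1 crosses between them, CASTxPWK, PWKxCAST, CASTxWSB, WSBxCAST, PWKxWSB and WSBxPWK, with the dam first. All 9 groups were untreated and carried no engineered allele as far as the labels say, and they were bred at one university from founders of a commercial supplier. Each cross had 11 to 13 animals. Females and males gave 44 and 41 arrays of brain, 51 and 51 of kidney, 49 and 52 of liver and 50 and 48 of lung, with 6 to 13 arrays per cross and tissue and 2 to 7 per cross, sex and tissue. All 4 tissues were present for 67 animals, which the animal number in the sample titles links.

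Glucocorticoids cross the cell membrane and bind the glucocorticoid receptor, which is held in the cytoplasm by heat-shock chaperones. The bound receptor moves to the nucleus and binds DNA at palindromic response elements, or acts through other transcription factors. Because the hormone circulates, and its level moves with stress and with the time of day, its target genes can respond in many tissues of an animal. Fkbp5 encodes a co-chaperone that lowers the receptor's affinity for hormone and so closes a feedback loop. Zbtb16 (PLZF) and Tsc22d3 (GILZ, an anti-inflammatory mediator) are transcriptional regulators. Sgk1 encodes a kinase that raises sodium transport. Cdkn1a encodes the cell cycle inhibitor p21, which p53 also induces, and Ddit4 (REDD1) encodes an inhibitor of mTORC1 that hypoxia also induces. Plk3 encodes a stress-responsive polo-like kinase, and Plekhf1 (phafin 1) encodes a phosphoinositide-binding protein of endosomes and lysosomes.

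The promoter windows in RefSeq's GRCm38.p6 annotation, each from 250 bases before to 50 bases after a gene's start, were searched on both strands for the receptor's palindrome. Windows were found for 7 of the 8 genes, 15 windows in all, with 6 for Sgk1, 3 for Tsc22d3 and 2 for Cdkn1a. The full palindrome, AGAACA and TGTTCT with 3 bases between them, was in 3 of all 32851 windows (0.00913%), and 1 of those is a window of Sgk1. A relaxed form, GNACA and TGTNC with 3 bases between them, was in 156 windows (0.475%), among the members only at the same place in Sgk1. The single hexamer AGAACA, which the full palindrome contains, was in 6233 windows (19%) and in 4 of the members' 15. CACGTG, the E-box that clock and MYC-family proteins bind, was in 2349 windows (7.15%) and in 2 of the members' 15, one each of Fkbp5 and Sgk1. The 250 bases before the start are printed for these 2 genes because they show the palindrome and the E-box in place. Capitals mark the full palindrome in Sgk1, which begins 189 bases before the start (chr10:21993640-21993889, plus strand). In Fkbp5 they mark the E-box (chr17:28486150-28486399, minus strand). Both runs read 5′ to 3′ on the gene's strand.
Sgk1: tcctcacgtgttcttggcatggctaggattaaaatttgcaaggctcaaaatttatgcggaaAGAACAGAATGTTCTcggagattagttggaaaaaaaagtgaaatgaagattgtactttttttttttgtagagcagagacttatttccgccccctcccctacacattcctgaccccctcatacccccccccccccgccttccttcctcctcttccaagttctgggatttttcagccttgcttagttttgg
Fkbp5: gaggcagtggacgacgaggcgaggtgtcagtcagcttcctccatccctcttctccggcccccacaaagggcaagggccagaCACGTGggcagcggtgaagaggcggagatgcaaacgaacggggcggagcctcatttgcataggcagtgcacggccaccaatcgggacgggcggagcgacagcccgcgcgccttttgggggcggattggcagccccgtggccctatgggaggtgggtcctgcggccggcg
A match is a match of letters, and its absence from a window says only that these letters are not there.

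Levels are log2 signals after robust multi-array averaging (RMA). The median signal of an array lay between 5.89 and 6.36, and no array was a copy of another (highest r of any 2 arrays, 0.9952). All 8 genes passed the filter on low signals (mean signal at or above the 40th percentile of all genes) in all 4 tissues. Plekhf1 in brain was close to it, with a mean of 6.86 over all crosses against a filter of 6.37. Its brain means in CASTxCAST (6.16) and WSBxCAST (6.23) lay below the filter. The own-tissue markers were high under each label. Their summed signal was 13.94 to 14.18 in brain (3 of 3 measured above the filter) and 14.21 to 14.58 in kidney (4 of 4). In liver it was 14.53 to 14.83 (3 of 3) and in lung 15.00 to 15.24 (4 of 4). Other tissues' markers were present too: liver markers had medians of 9.91 in kidney (highest array 13.66) and 11.85 in lung. Heart muscle had 13.68 in lung and brown fat 11.57 in kidney. Members had 0 called correlations with the liver and brown fat markers there, and 2 of 32 with heart muscle. Exocrine pancreas reached 11.42 in a WSBxCAST liver and more in a CASTxCAST liver. The part of such tissue in group differences was not tested. Markers of the adrenal cortex, which makes the hormone, summed to a median of 7.33 in kidney with a highest array of 12.98, and 0 of 6 passed the filter there. For 2 arrays (PWKxCAST brain replicate 9 and PWKxWSB liver replicate 8) the sex-linked genes went against the labelled sex, and without them the counts of called results below were 55 against 55 between inbred strains, 14 against 13 between reciprocal crosses and 36 against 36 against mid-parents. Probe letters that differ between the strains' genomes were not analysed, so a difference in signal between strains is not shown to be one in transcript amount. In such bulk tissue, fewer cells of a type and less RNA per cell cannot be told apart.

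Each gene had its own order of tissues. Fkbp5 signal was highest in liver (mean 9.78 ± 0.56 SD over all arrays of the tissue), followed by kidney (9.32 ± 0.81), lung (8.76 ± 1.02, n = 98) and brain (8.62 ± 0.36, n = 85). Its brain and lung levels differed by -0.10, which did not pass the test (adjusted p = 0.2539, limma with the animal as a random block), and the lung arrays ran from 6.90 to 11.09, far wider than the brain arrays at 7.75 to 9.60. Zbtb16 stood apart in kidney, at 7.94 ± 1.21 against 9.61 ± 0.36 in brain, 9.64 ± 0.66 in liver and 9.68 ± 1.35 in lung. The last 3 tissues did not differ beyond their spread in Zbtb16 (adjusted p from 0.6783 to 0.8601, limma), and kidney was below lung by 1.76 ± 0.11 (log2 difference ± SE).

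Tsc22d3 signal was highest in lung (10.67 ± 0.41) and liver (10.46 ± 0.40), then kidney (9.44 ± 0.40) and brain (9.14 ± 0.25), and every neighbouring pair differed. Sgk1 was highest in kidney (10.75 ± 0.41), the organ where its action on sodium transport is best known, and then in lung (10.45 ± 0.15), brain (9.80 ± 0.40) and liver (9.19 ± 0.35), again with each neighbouring pair different. Cdkn1a was highest in lung (11.46 ± 0.62) and lowest in brain (9.73 ± 0.30), while kidney (10.05 ± 0.76) and liver (9.98 ± 1.14) did not differ (adjusted p = 0.5556, limma). Liver arrays spanned 6.77 to 11.66 for Cdkn1a, the widest range of any member in that tissue.

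Ddit4 had the narrowest order: lung 9.80 ± 0.56, kidney 9.40 ± 0.54, brain 9.29 ± 0.33 and liver 9.14 ± 0.91. Kidney and brain did not differ (adjusted p = 0.2309), and the difference of 0.15 ± 0.08 between brain and liver (adjusted p = 0.04931) was lost without the animal as a block. Plk3 had its highest signal in liver (10.03 ± 0.58) and its lowest in lung (8.19 ± 0.21), with a difference of 1.83 ± 0.07 between those tissues. Plekhf1 ran from 9.05 ± 0.48 in kidney through 8.37 ± 0.57 in liver and 8.07 ± 0.64 in lung to 6.86 ± 0.53 in brain, and brain was below kidney by 2.16 ± 0.06. Of the members' 48 pairwise tissue differences, 42 passed an adjusted p of 0.05 (limma). Between 93.3% and 96.5% of all genes did so in these 6 comparisons (95.6% for brain and kidney, 96.5% for brain and liver, 95.1% for brain and lung, 93.3% for kidney and liver, 94% for kidney and lung, 95.9% for liver and lung), so the members' share is no higher than that of genes at large. The sources used here do not say whether RMA was run over all tissues at once, which limits what a level set across tissues means.

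Across the 9 crosses, the CASTxCAST mice were at the low end for most members and at the high end for Fkbp5. CASTxCAST had the lowest cross mean of Sgk1, Ddit4 and Plekhf1 in all 4 tissues, of Plk3 in brain, kidney and liver, and of Tsc22d3 in kidney, liver and lung. The lowest mean of Cdkn1a was in CASTxCAST in liver (8.66 ± 1.22, n = 11) and lung (10.68 ± 0.54, n = 10). Fkbp5 instead had its highest cross mean there, at 9.07 ± 0.37 in brain (n = 8), 10.24 ± 0.60 in kidney (n = 11) and 10.47 ± 0.49 in liver (n = 11); in lung WSBxWSB was highest (9.57 ± 1.19, n = 12). WSBxPWK had the lowest Fkbp5 mean in brain (8.25 ± 0.20, n = 13), kidney (8.45 ± 0.52, n = 10) and liver (9.39 ± 0.50, n = 12), and WSBxCAST in lung (7.70 ± 0.62, n = 12). The test of any difference among crosses passed for 31 of 32 members and tissues, the exception being Plk3 in lung (adjusted p = 0.8415, limma). Among all genes it passed for 85.1% (brain), 91.1% (kidney), 85.8% (liver) and 93.9% (lung).

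**Figure D1:**
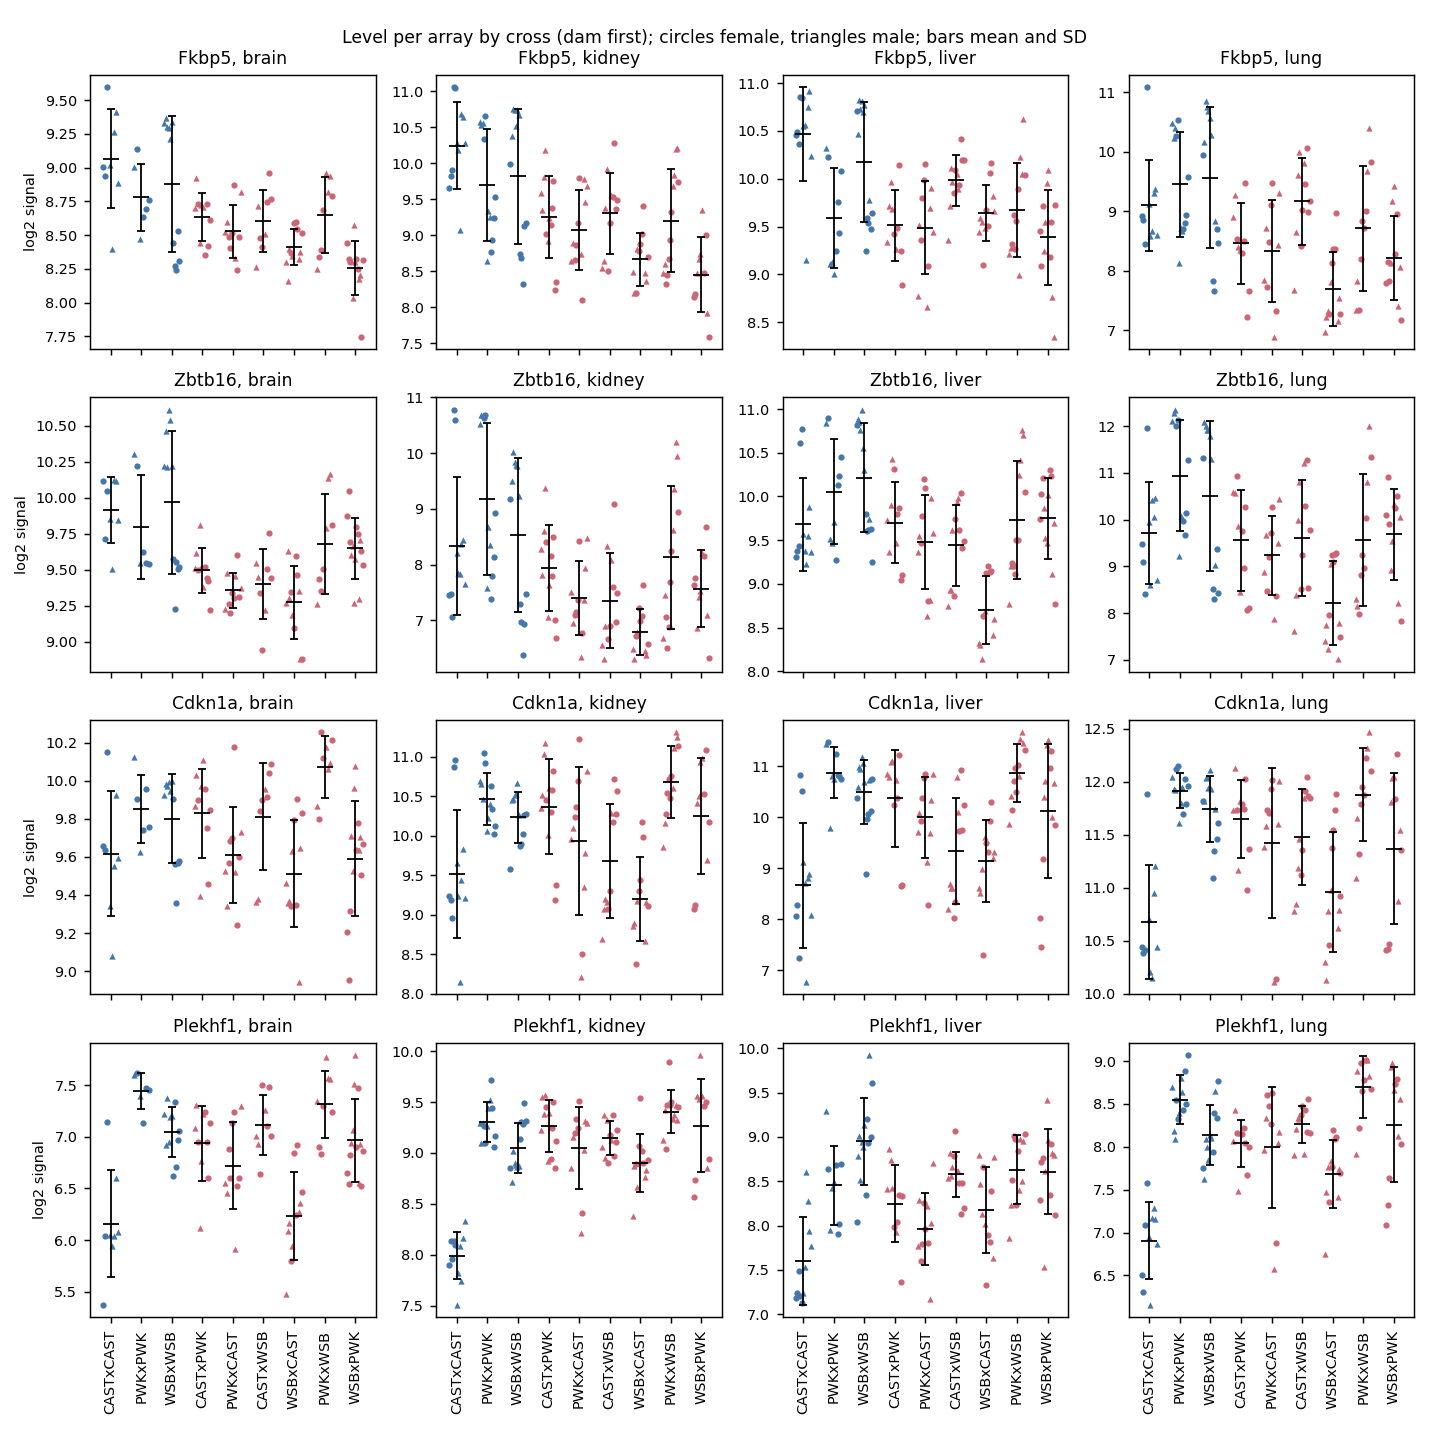
Log2 signal (y axis) of Fkbp5, Zbtb16, Cdkn1a and Plekhf1 (rows) in brain, kidney, liver and lung (columns), 1 point per array by cross (x axis, dam first), blue for inbred strains and red for F1 crosses, circles for females and triangles for males, with black bars for the mean and SD. Plekhf1 is lowest in CASTxCAST in all 4 tissues (7.99 in kidney), and Zbtb16 in kidney and lung spreads over several log2 units within single crosses.

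Between the inbred strains, Ddit4 and Plekhf1 were lower in CAST than in both PWK and WSB in every tissue (8 of 8 comparisons each), Sgk1 in 7 of 8, Tsc22d3 and Cdkn1a in 6 of 8, Plk3 in 5 of 8 and Zbtb16 in 2 of 8. Fkbp5 was lower in 0 of 8 and higher in 4 of 8. Both Zbtb16 calls were lost with runs of close animal numbers (explained further on) as a block, in lung against PWK (-1.22, adjusted p = 0.104, and without CASTxCAST lung replicate 3 alone) and in liver against WSB (-0.49, adjusted p = 0.0998, and without any of 5 single arrays). That block also ended 3 of the 8 Ddit4 calls, those against WSB in brain (0.0664), kidney (0.0707) and lung (0.0961), and the calls against WSB of Cdkn1a in kidney (0.101) and Plk3 in liver (0.0725). Single arrays left out ended the Ddit4 calls in brain (any of 8) and lung (any of 6). Of the 8 members, those called lower in CAST than PWK numbered 3 (brain), 6 (kidney), 6 (liver) and 6 (lung), and those called higher 1, 1, 1 and 0. For CAST against WSB, 4, 5, 7 and 5 were lower and 1, 0, 0 and 0 higher. For PWK against WSB, 5 of 32 members and tissues were higher and 4 lower. In all, 55 of 96 inbred comparisons were called, of which 39 remained with runs as a block: 22 of 24 for CAST against PWK, 16 of 22 for CAST against WSB and 1 of 9 for PWK against WSB. Calls are common between these strains: an adjusted p under 0.05 was reached by 40.9%, 60.1%, 50.1% and 62.7% of all genes for CAST against PWK in brain, kidney, liver and lung, by 52.4%, 59.6%, 57% and 59.9% for CAST against WSB, and by 40.4%, 60.7%, 55.3% and 61.4% for PWK against WSB. The members' count is therefore near the background. Because the members covary within animals, the 32 members and tissues of a comparison are not 32 separate observations. By direction, 21 of 32 members and tissues were called lower in CAST than PWK and 21 of 32 lower than WSB, while of all genes 21.2% (brain), 33% (kidney), 26.3% (liver) and 29.5% (lung) were called lower in the first comparison and 25.7%, 25.5%, 25.3% and 24% in the second. The median difference of the 8 members between CAST and PWK was -0.30 (brain), -0.86 (kidney), -0.63 (liver) and -0.68 (lung), while the median of all genes lay between -0.02 and 0.01.

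Plekhf1 had the clearest separation. In kidney the CAST arrays read 7.51, 8.09 and 8.34 (lowest, median, highest, n = 11), the PWK arrays 9.06, 9.28 and 9.72 (n = 12), and the WSB arrays 8.71, 8.96 and 9.49 (n = 12). No CAST array reached the lowest array of either other strain, and CAST was lower than PWK by 1.31 ± 0.11 (adjusted p = 3.528e-19, limma) and than WSB by 1.06 ± 0.11 (adjusted p = 1.163e-14). The lung showed the same separation, with CAST at 6.16, 7.02 and 7.58 (n = 10), PWK at 8.10, 8.53 and 9.07 (n = 12) and WSB at 7.62, 8.10 and 8.76 (n = 12). There CAST was lower than PWK by 1.65 ± 0.18 (adjusted p = 2.657e-13) and than WSB by 1.25 ± 0.18 (adjusted p = 5.262e-09). In brain, CAST ran from 5.38 through 6.05 to 7.14 (n = 8) and PWK from 7.13 through 7.46 to 7.61 (n = 6). These overlapped at 1 edge, and the difference was -1.29 ± 0.20 (adjusted p = 1.201e-07, limma). The CAST brain mean (6.16) lay below the filter on low signals (6.37).

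Cdkn1a differed most in liver, where the CAST arrays were spread over 6.77, 8.71 and 10.84 (lowest, median, highest, n = 11) and the PWK arrays over 9.80, 10.82 and 11.47 (n = 9). Most CAST livers lay below every PWK liver although the ranges overlapped, and CAST was lower by 2.17 ± 0.38 (adjusted p = 1.094e-06, limma). Against WSB (8.88, 10.70 and 11.18, n = 13) the difference was -1.77 ± 0.35 (adjusted p = 8.617e-06). The lung had CAST at 10.15, 10.44 and 11.88 (n = 10) and PWK at 11.61, 11.94 and 12.15 (n = 12), a difference of -1.22 ± 0.20 (adjusted p = 1.378e-07). CAST was low in both organs, with at least 1 array that reached into the PWK range. Immune cell markers in lung moved between these strains as well. The summed signal of the 4 measured lymphocyte markers was 9.93, 10.66 and 10.94 in CASTxCAST, 8.69, 9.63 and 10.04 in PWKxPWK and 9.75, 10.29 and 10.62 in WSBxWSB, and that of the 4 neutrophil markers had medians of 8.89, 8.01 and 8.32. Their part in the lung differences between strains was not tested.

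Ddit4, the mTORC1 inhibitor, read 7.52, 8.73 and 9.16 in CAST kidney (n = 11) and 9.23, 9.50 and 9.79 in PWK kidney (n = 12). The ranges did not overlap, and CAST was lower by 0.94 ± 0.16 (adjusted p = 2.433e-07, limma). The liver difference was larger, -1.59 ± 0.32 (adjusted p = 2.004e-05), from 7.35, 7.76 and 9.08 in CAST to 8.88, 9.81 and 10.44 in PWK, with a short overlap. For Plk3, CAST kidneys ran from 6.93 through 8.20 to 10.33 and PWK kidneys from 9.44 through 10.01 to 10.49, a difference of -1.59 ± 0.30 (adjusted p = 4.575e-06, limma) with a few CAST arrays inside the PWK range. Its lung arrays showed no such gap: CAST minus PWK was -0.06 (95% interval -0.24 to 0.12).

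The changes of Sgk1 and Tsc22d3 were smaller. Sgk1 in kidney read 9.80, 10.12 and 11.02 in CAST and 10.83, 10.99 and 11.27 in PWK, so that the CAST median lay below every PWK array, with a difference of -0.73 ± 0.14 (adjusted p = 3.359e-06, limma). Tsc22d3 in lung read 9.66, 10.15 and 11.06 in CAST and 10.86, 11.05 and 11.28 in WSB, a difference of -0.78 ± 0.15 (adjusted p = 2.743e-06). Fkbp5 went the other way: CAST livers read 9.14, 10.55 and 10.91 (n = 11), PWK livers 9.004, 9.43 and 10.32 (n = 9), and CAST was higher by 0.91 ± 0.19 (adjusted p = 3.747e-05, limma). The ranges overlapped over most of the PWK span. With runs as a block, this Fkbp5 difference had an adjusted p of 2.035e-03, while the one in kidney (0.55, adjusted p = 0.03627) had 0.0619 and was also lost when any of 10 single arrays was left out. The Fkbp5 calls in brain, against PWK (0.319) and WSB (0.255), ended without any of 5 and any of 3 single arrays. With array weights their adjusted p was 0.0832 and 0.103, and with runs as a block 0.0325 and 0.0422 (limma).

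**Figure D2:**
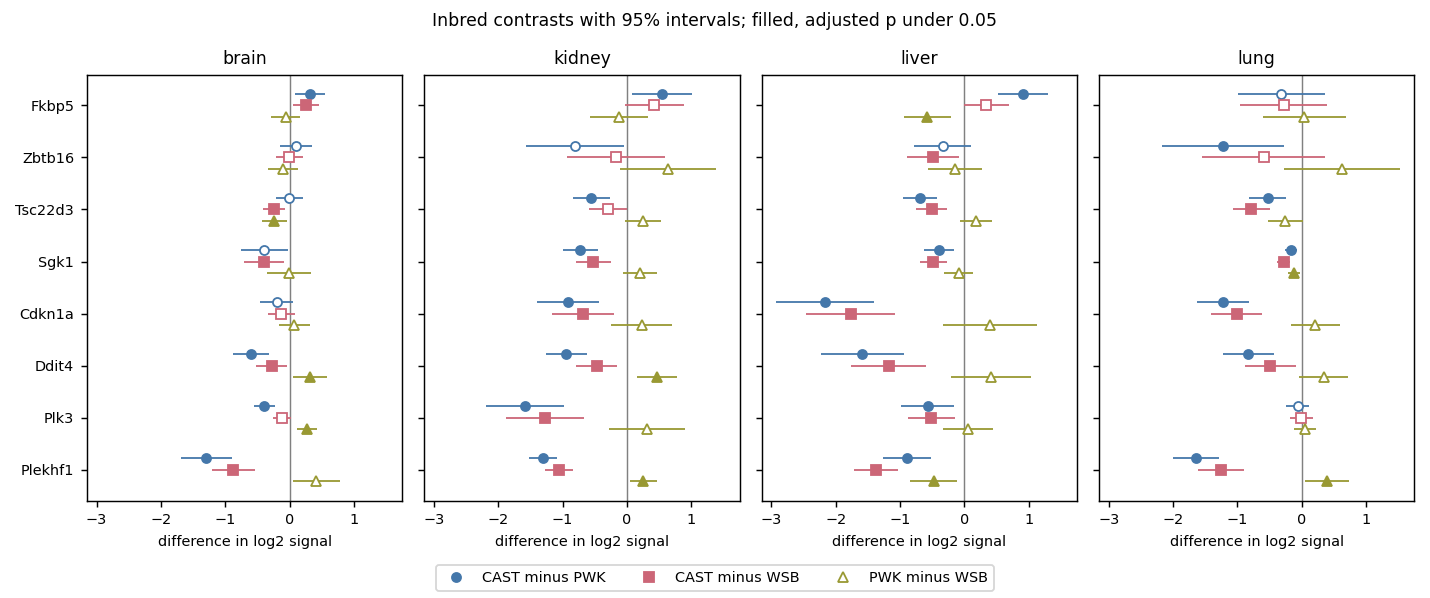
Difference in log2 signal (x axis) between inbred strains for the 8 genes (y axis) in 4 tissues (panels), with 95% intervals; blue circles are CAST minus PWK, red squares CAST minus WSB and olive triangles PWK minus WSB, filled where the adjusted p is under 0.05. Ddit4 and Plekhf1 lie below 0 in both comparisons with CAST in every panel, and Fkbp5 in liver lies above 0 for CAST minus PWK (0.91) and below 0 for PWK minus WSB (-0.57).

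Other glucocorticoid-induced genes, a list of 28 such as Per1, Klf9, Dusp1 and Nfkbia, had mostly lower calls in CAST. The list was chosen with earlier results of these data known. Against PWK, 8 fell and 3 rose of 20 tested in brain, while 16 fell in each of kidney (4 rose, of 26), liver (4, of 26) and lung (1, of 27). Their median differences were -0.17, -0.37, -0.43 and -0.42, beside all-gene medians between -0.02 and 0.01. Dusp1, a phosphatase that limits MAP kinase signalling, was lower in CAST than in PWK by 1.01 in brain (adjusted p = 3.495e-10) and by 0.56 in lung (adjusted p = 8.709e-10, limma). The genes of the receptor itself and of hormone access moved in both directions. In CAST liver the receptor gene Nr3c1 was 0.27 higher than in PWK (adjusted p = 6.642e-04). In CAST brain Hsd11b1, whose enzyme regenerates active hormone, was higher than in PWK by 0.73 (adjusted p = 8.786e-05), and in kidney Hsd11b2, whose enzyme inactivates hormone, was lower by 0.38 (adjusted p = 1.716e-14). Of this list's 14 genes tested in kidney, 5 rose and 5 fell between CAST and PWK.

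The F1 crosses were set against the mean of their parent strains, and here the members split by gene. Fkbp5 was lower in F1 mice than the mid-parent value in 11 of 12 comparisons of parent pair and tissue, and Zbtb16 in 8 of 12, with 0 higher for both. Ddit4 was higher in 6 of 12, Plekhf1 in 3, Sgk1 in 2 and Plk3 in 1, with 0 lower for these 4 genes. Tsc22d3 was higher in 2 and lower in 2. Cdkn1a was lower in 1 (kidney, CAST and WSB), a call that ended without CASTxCAST kidney replicate 5. Both lower calls of Tsc22d3 ended without single arrays, any of 18 in brain (CAST and WSB) and any of 3 in lung (PWK and WSB). So did the Ddit4 calls in kidney for PWK and WSB (any of 17) and in lung for CAST and WSB (any of 3). The 36 calls of 96 compare with background shares of 18.9%, 33.7%, 18.7% and 19.5% of all genes for the CAST and PWK pair in brain, kidney, liver and lung, of 37.1%, 42.7%, 25.3% and 30.5% for CAST and WSB, and of 10%, 37.4%, 17% and 37.2% for PWK and WSB.

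Kidney arrays of the CAST and WSB crosses read 8.19, 8.84 and 10.28 for Fkbp5 (lowest, median, highest, n = 22), while those of the parents read 8.32, 10.28 and 11.06 (n = 23). The parents' median was level with the highest F1 array, and the F1 mice were lower by 1.06 ± 0.17 (adjusted p = 2.672e-07, limma). In brain the same F1 mice read 8.16, 8.48 and 8.96 and the parents 8.24, 9.02 and 9.60 (n = 19 each), a difference of -0.46 ± 0.07 (adjusted p = 1.056e-06). Zbtb16 in brain showed a like gap, with F1 mice at 8.88, 9.35 and 9.76 and the parents at 9.22, 10.05 and 10.61, a difference of -0.59 ± 0.07 (adjusted p = 5.144e-09). In kidney Zbtb16 was lower in these F1 mice by 1.40 ± 0.27 (adjusted p = 2.326e-05), which was lost with run means as the units (adjusted p = 0.127).

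Ddit4 in kidney went up in the same crosses, from 7.52, 8.76 and 9.44 in the parents (n = 23) to 8.47, 9.47 and 10.23 in the F1 mice (n = 22). The F1 median lay above every parent array, and the difference was 0.74 ± 0.11 (adjusted p = 1.549e-07, limma). In the CAST and PWK crosses it was 0.68 ± 0.11 (adjusted p = 1.933e-06). Plekhf1 in kidney was above the mid-parent value by 0.51 ± 0.08 in the CAST and PWK crosses (adjusted p = 1.922e-07) and by 0.49 ± 0.08 in the CAST and WSB crosses (adjusted p = 2.989e-07). Plk3 was raised in liver of the CAST and WSB crosses, where F1 arrays read 9.67, 10.62 and 11.27 (n = 23) and parent arrays 8.53, 9.54 and 11.08 (n = 24), a difference of 0.89 ± 0.13 (adjusted p = 7.146e-08) that run means as the units took to an adjusted p of 0.106. Of the 36 calls, 6 remained with run means as the units: those of Fkbp5 and Ddit4 in kidney and of Zbtb16 and Ddit4 in brain for CAST and WSB (adjusted p = 0.0389, 0.0128, 0.0222 and 0.0214), and both of Plekhf1 in kidney (0.0074 and 0.0098).

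Reciprocal F1 crosses carry the same pair of parent genomes and differ in which strain was the dam, and with it in the mother's care and milk, the mitochondria, imprinted alleles and, in males, the X chromosome. Of 96 comparisons, 13 were called. Between CASTxWSB and WSBxCAST there were 11, all higher in CASTxWSB, and between PWKxWSB and WSBxPWK 2, both higher in PWKxWSB. The CASTxWSB differences of Plk3 in kidney and Plekhf1 in brain were known from earlier results of these data when the members were chosen. Between CASTxPWK and PWKxCAST 0 were called by limma, with 3 of 32 at an unadjusted p under 0.05. The background was 0.779% (brain), 2.44% (kidney), 5.62% (liver) and 38.8% (lung) of all genes for CASTxWSB against WSBxCAST, 0.151%, 3.03%, 9.32% and 0.611% for CASTxPWK against PWKxCAST, and 0.248%, 1%, 1.22% and 8.4% for PWKxWSB against WSBxPWK. Called or not, the differences were above 0 in 30 of 32 members and tissues for CASTxPWK minus PWKxCAST (median 0.20), 31 of 32 for CASTxWSB minus WSBxCAST (median 0.41) and 27 of 32 for PWKxWSB minus WSBxPWK (median 0.34). The members covary within animals, so these are not 32 separate observations.

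Plekhf1 in brain read 6.64, 7.05 and 7.50 in CASTxWSB (n = 8) and 5.48, 6.24 and 6.92 in WSBxCAST (n = 11), a short overlap and a difference of 0.86 ± 0.17 (adjusted p = 0.001993, limma). The WSBxCAST mean (6.23) lay below the filter on low signals (6.37). Fkbp5 in lung read 7.67, 9.17 and 10.06 in CASTxWSB (n = 11) and 6.97, 7.44 and 8.97 in WSBxCAST (n = 12), a difference of 1.47 ± 0.33 (adjusted p = 0.000468). Plk3 in kidney read 9.06, 9.63 and 10.78 in CASTxWSB and 7.35, 8.12 and 10.68 in WSBxCAST (n = 11 each), a difference of 1.45 ± 0.31 (adjusted p = 0.002616). With runs as a random block the first pair kept a call (adjusted p = 0.03645 for Plekhf1 and 0.02506 for Fkbp5), and Plk3 did not (0.6868). These 2 are the only reciprocal calls left under that block, and with run means as the units there were 0, with 12 of 96 at an unadjusted p under 0.05. Because the differences of Plekhf1 in brain and Plk3 in kidney were known when the members were chosen, their p-values are no independent test.

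In liver, Zbtb16 ran from 8.75 through 9.55 to 10.04 in CASTxWSB (n = 12) and from 8.14 through 8.63 to 9.20 in WSBxCAST (n = 11), a difference of 0.71 ± 0.20 (adjusted p = 0.01983, limma), and Sgk1 differed by 0.41 ± 0.11 (adjusted p = 0.009053). In lung, Zbtb16 (1.39 ± 0.46, adjusted p = 0.01349), Tsc22d3 (0.43 ± 0.14, adjusted p = 0.01221) and Plekhf1 (0.57 ± 0.17, adjusted p = 0.007609) were higher in CASTxWSB as well. The lung markers of lymphocytes moved with these crosses: the summed signal of the 4 measured of 6 markers was 9.30, 10.05 and 10.61 in CASTxWSB and 10.44, 10.76 and 11.17 in WSBxCAST (lowest, median, highest), and no marker was below the filter. Their part in the lung differences was not tested. Between PWKxWSB and WSBxPWK, Cdkn1a in brain read 9.80, 10.11 and 10.25 (n = 8) against 8.96, 9.64 and 10.08 (n = 13), a difference of 0.47 ± 0.10 (adjusted p = 0.01467), which was 0.1547 with runs as a block. The remaining called differences, of Sgk1, Ddit4 and Fkbp5 in brain and Cdkn1a in lung, each ended when any of 2 to 11 single arrays was left out. For Sgk1 those arrays were CASTxWSB brain replicate 5 and WSBxCAST brain replicate 4.

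The other glucocorticoid-induced genes gave 4 higher and 0 lower calls of 20 in brain for CASTxWSB against WSBxCAST, 8 and 0 of 26 in kidney, 13 and 1 of 26 in liver and 14 and 0 of 27 in lung. The lung median was 0.38 beside -0.04 for all genes. Klf15, a metabolic transcription factor, was 0.80 higher in CASTxWSB lung (adjusted p = 0.0001693), and the stress-responsive Mt2 was 1.28 higher in CASTxWSB liver (adjusted p = 5.258e-10, limma). Of the genes of the receptor and hormone access, 0 of 13 were called in brain and 0 of 14 in kidney, 1 rose and 0 fell in liver, and 7 rose and 1 fell in lung.

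Tsc22d3 is on the X chromosome, so males of reciprocal crosses carry it from different strains. Among males it was higher in CASTxWSB than in WSBxCAST in liver, at 10.27 to 10.86 (n = 6) against 9.51 to 10.45 (mean 9.98 ± 0.33, n = 6), with a short overlap and a difference of 0.54 ± 0.17 (adjusted p = 0.0375, limma; 5.32% of all genes were called). In male lung the difference was 0.56 ± 0.20 (adjusted p = 0.03002; 30.8% called). With runs as a block these had adjusted p of 0.2461 and 0.09658, and none of the other reciprocal comparisons of Tsc22d3 within a sex was called. Among males, 0.195%, 2.63%, 2.45% and 0.496% of all genes were called for CASTxPWK against PWKxCAST in brain, kidney, liver and lung, 0.257% and 1.67% for CASTxWSB against WSBxCAST in brain and kidney, and 0.151%, 0.877%, 0.912% and 1.9% for PWKxWSB against WSBxPWK. Among females these shares were 0%, 0.0708%, 0.0177% and 0.0266%, then 0.0177%, 0%, 0.204% and 0.319% over the 4 tissues, and 0%, 0%, 0.221% and 0.505%.

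Between females and males 1 of 32 comparisons was called, Fkbp5 in kidney, where females read 7.59, 9.02 and 11.06 and males 7.92, 9.46 and 10.75 (n = 51 each), largely overlapping, with females lower by 0.33 ± 0.11 (adjusted p = 0.03869, limma). Of all genes, 0.0708% (brain), 10.9% (kidney), 13.8% (liver) and 3.52% (lung) were called. That call ended with any of 16 single arrays left out, and with runs as a block the difference was -0.25 (adjusted p = 0.1803). The sex difference varied among crosses in 4 of 32 members and tissues (background 0.708%, 4.52%, 8.13% and 23.3%). For Fkbp5 in brain (interaction adjusted p = 0.0004461), WSBxWSB females read 8.24 to 8.53 (n = 5) and males 9.22 to 9.37 (n = 6), a gap of -0.95 with no overlap, while the other crosses lay between -0.19 and 0.21. Zbtb16 in brain showed the same pattern (interaction adjusted p = 0.005113), with WSBxWSB females at 9.47 ± 0.14 and males at 10.38 ± 0.18. All 6 of these males, and no female, came from a single run of neighbouring animal numbers, so that run and sex of WSBxWSB brains cannot be told apart. Tsc22d3 and Ddit4 in liver also varied (interaction adjusted p = 0.007747 and 0.04399), with females above males in WSBxCAST (by 0.62 and 1.64) and below them in WSBxPWK (by -0.70 and -0.97 as female minus male), and both were lost with runs as a block.

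The labels give no litter, cage, collection time or array plate. The animal numbers within a cross fall into runs, taken here as successive numbers at most 5 apart: 25 runs of 1 to 10 animals, 2 to 4 per cross. In CASTxCAST no run held both sexes. The share of a gene's spread within crosses that lay between runs had an all-gene median of 25.5% (brain), 31.3% (kidney), 28.9% (liver) and 32.2% (lung). Zbtb16 had 65.2%, 76.3%, 60.6% and 65.8%, Fkbp5 64.9%, 66.2%, 41.9% and 59.7%, and Tsc22d3 52.3%, 59%, 53.3% and 43.4%. Cdkn1a had 39.2%, 50.1%, 58.9% and 43.9%, and Plk3 36.3%, 49.8%, 59.2% and 35.8%. Sgk1 had 38.3%, 40.4%, 52.2% and 41.9%, and Ddit4 28.1%, 39.3%, 43.3% and 42%. Plekhf1 stayed close to genes at large (29.5%, 32.2%, 36.4% and 36%). These shares are descriptions, since the runs were made from the numbers and are no labelled batch.

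Zbtb16 in kidney shows the size of it. In PWKxPWK, a run of 5 animals read 10.64 ± 0.07, a run of 4 read 7.99 ± 0.61 and a run of 3 read 8.29 ± 0.58. In CASTxCAST, a run of 3 females read 7.33 ± 0.24 and a run of 2 females 10.69 ± 0.13. These gaps lie within an inbred strain, and in CASTxCAST within a sex. Fkbp5 followed the PWKxPWK runs in each tissue: the first against the second read 9.07 against 8.55 in brain, 10.53 against 9.003 in kidney, 10.28 against 9.12 in liver and 10.39 against 8.56 in lung. In WSBxWSB kidney, the run of 6 males read 10.63 ± 0.15 for Fkbp5 and a run of 3 females 8.59 ± 0.23. Plk3 there went the other way, at 9.04 ± 0.48 in those males and 10.61 ± 0.39 in those females.

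To see how the genes move within single animals, the mean of each cross and sex was subtracted in each tissue, and the deviations of the same animal in 2 tissues were correlated. Of 48 correlations (8 genes, 6 pairs of tissues), 38 passed an adjusted p of 0.05 over all genes, and all 38 were positive. Few genes did so: 0.457% of all genes for brain and kidney, 0.187% for brain and liver, 0.578% for brain and lung, 5.08% for kidney and liver, 5.41% for kidney and lung and 3.74% for liver and lung. By pair, 7, 4, 7, 7, 7 and 6 of the 8 members were called in that order. The members' median r was 0.661, 0.520, 0.601, 0.738, 0.876 and 0.750, beside all-gene medians of 0.012, 0.003, 0.061, 0.079, 0.033 and 0.037. The pairs rest on 78, 76, 74, 95, 93 and 92 animals.

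Kidney and lung were closest. Over 93 animals r was 0.907 for Fkbp5 (Spearman's rho 0.914), 0.906 for Ddit4 (rho 0.888), 0.905 for Cdkn1a (rho 0.863), 0.879 for Tsc22d3 (rho 0.869), 0.874 for Zbtb16 (rho 0.872), 0.689 for Plekhf1 (rho 0.585) and 0.591 for Sgk1 (rho 0.579). Each of these 14 values had a two-sided permutation p of 1e-05, the smallest that 100000 permutations can give. Animals were permuted within cross and sex, not within runs. The adjusted p of each r over all genes was 2.224e-06 or less. Without the 2 animals farthest from the median, r was 0.920, 0.889, 0.884, 0.862, 0.860, 0.608 and 0.598 in the same order. Plk3 stood apart, at -0.022 (rho -0.120, permutation p = 0.8645). Only 3 of all genes had a higher kidney and lung correlation than Fkbp5, 4 than Ddit4 and 5 than Cdkn1a.

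**Figure D3:**
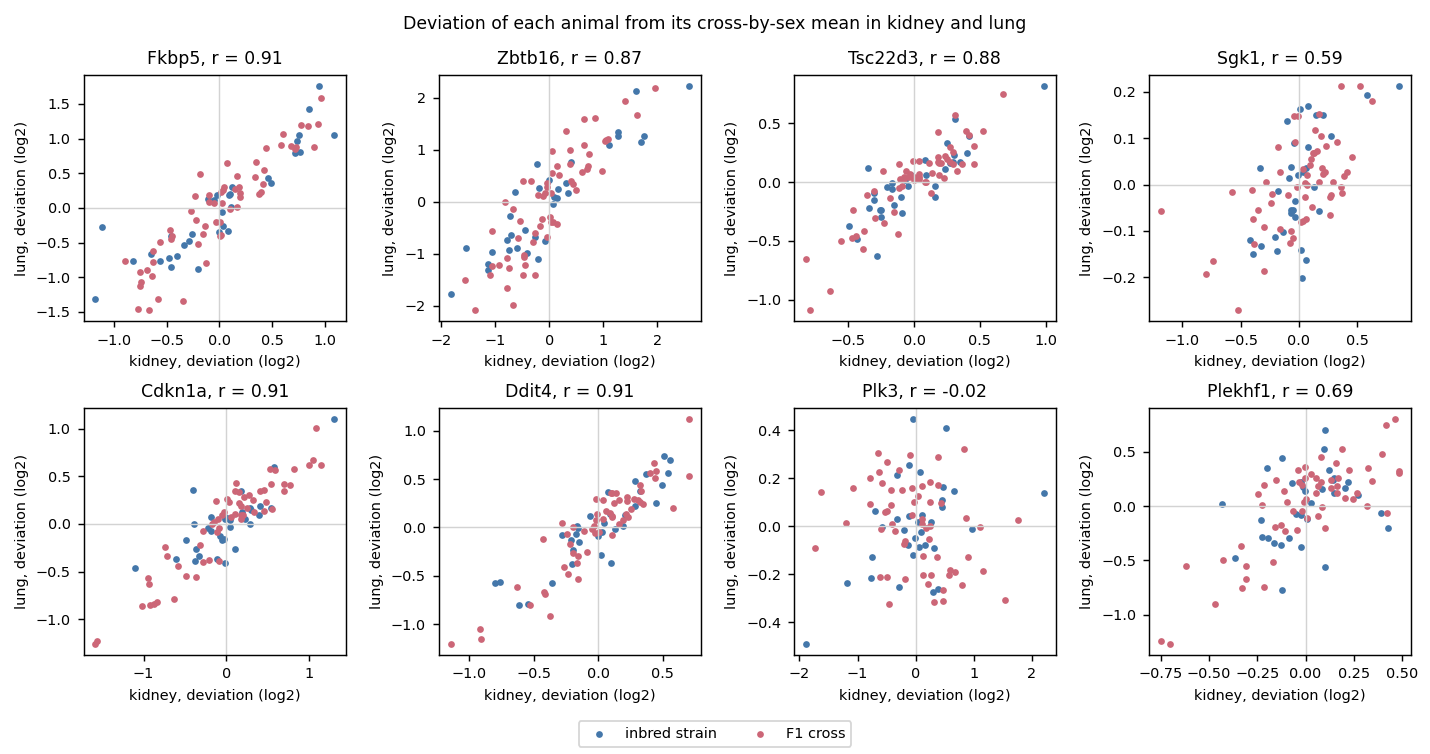
Deviation of each of 93 animals from its cross-by-sex mean (log2 signal) in kidney (x axis) and lung (y axis), 1 panel per gene, blue for inbred strains and red for F1 crosses. The points of Fkbp5, Ddit4, Cdkn1a, Tsc22d3 and Zbtb16 lie along a rising line (r from 0.874 to 0.907), and those of Plk3 do not (r = -0.022).

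Single animals show the pattern without any fit, in values from which neither sex nor run means were removed. In each cross the animal with the highest kidney Fkbp5 also had the highest lung Fkbp5 in 8 of 9 crosses and the next highest in CASTxPWK. In CASTxCAST this was replicate 4 of both tissues, with 11.06 in kidney and 11.09 in lung, where the median of the cross was 8.89. In WSBxWSB it read 10.75 and 10.86. For Cdkn1a the highest kidney was the highest lung in 7 of 9 crosses and the next highest in the other two. The match was looser for Zbtb16 (5 of 9) and Ddit4 (4 of 9, lowest rank 4). Between kidney and liver it held in 7 of 9 crosses for Fkbp5, 4 for Cdkn1a, 3 for Zbtb16 and 2 for Ddit4, whose lowest rank was 5. These ranks include differences between runs, which for Fkbp5 held 66.2% (kidney) and 59.7% (lung) of the spread within crosses. No such ranks were taken over all genes.

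The closest pair differed by gene. Sgk1 had r = 0.822 between brain and kidney, above every other gene tested, and Fkbp5 had 0.803 there with 1 gene above it. Cdkn1a had 0.904 between kidney and liver, again above every other gene, and Zbtb16 0.870 with 1 gene above. Over the 6 tissue pairs, r ran from 0.621 to 0.905 for Cdkn1a, 0.622 to 0.907 for Fkbp5, 0.563 to 0.879 for Tsc22d3 and 0.570 to 0.906 for Ddit4, with 6 of 6 called in each. Sgk1 (0.477 to 0.822) and Zbtb16 (0.336 to 0.874) had 5 of 6 called, both missing brain and liver. Plekhf1 (0.058 to 0.689) had 3 of 6, and Plk3 (-0.022 to 0.480) had 1, between kidney and liver.

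Subtracting the mean of each run and the sex difference instead left 34 of 48 called, with backgrounds of 0.213%, 0.0937%, 0.406%, 2%, 2.65% and 1.79%. Between kidney and lung, r within runs was 0.895 for Cdkn1a, 0.887 for Ddit4, 0.852 for Tsc22d3 and 0.833 for Fkbp5. It was 0.744 for Zbtb16, 0.642 for Plekhf1 and 0.405 for Sgk1, and all of these were called. With animals permuted within runs, the permutation p of r was 1e-05 for each of these genes except Sgk1 (0.00142). Calls that were lost were those of Zbtb16 between brain and kidney (0.538 to 0.220) and brain and lung (0.544 to 0.227), of Fkbp5 between brain and liver (0.622 to 0.493) and of Plk3 between kidney and liver (0.480 to 0.231). The shared movement across organs thus held within runs for 5 genes between kidney and lung at r above 0.7, with Zbtb16 falling most among them.

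**Figure D4:**
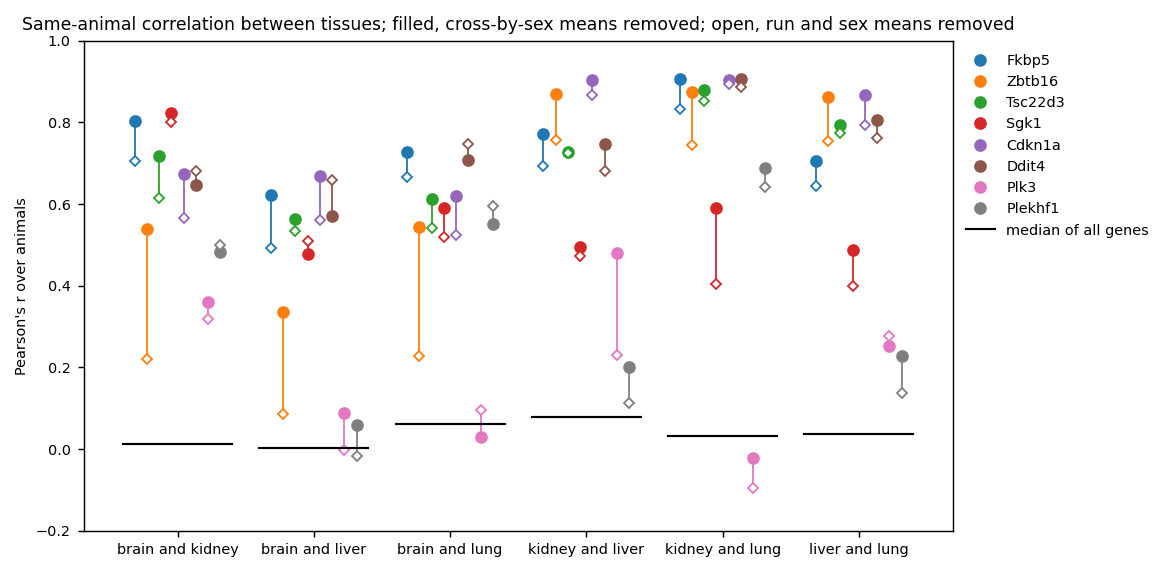
Pearson's r over animals (y axis) between the 6 pairs of tissues (x axis) for each of the 8 genes (colours), filled circles after cross-by-sex means were removed and open diamonds after run and sex means were removed, with a black bar for the median of all genes. The filled circles of Fkbp5, Tsc22d3, Cdkn1a and Ddit4 lie at 0.563 or above in every pair, while the all-gene median is between 0.003 and 0.079. Plk3, Plekhf1 in pairs with liver, and the open diamonds of Zbtb16 in pairs with brain (0.086 at the lowest) lie nearer to it.

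Within a tissue the members also moved together over animals. Of the 28 pairs of members, 24 were positively correlated in kidney, 19 in brain, 18 in lung and 11 in liver; 0, 1, 2 and 0 pairs were negatively correlated. The share of all genes positively correlated with a member at the same threshold was 1.36%, 4.95%, 4.89% and 11.5% for Fkbp5 in brain, kidney, liver and lung, 16.7%, 4.56%, 4.42% and 10.6% for Zbtb16, and 13.5%, 5.96%, 3.42% and 8.77% for Tsc22d3. For Sgk1 it was 1.89%, 5.34%, 1.18% and 11.5%, for Cdkn1a 8.15%, 5.16%, 4.45% and 9.71%, and for Ddit4 30.1%, 3.01%, 12.3% and 8.17%. For Plk3 it was 3.8%, 9.71%, 1.06% and 4.12%, and for Plekhf1 14.9%, 1.33%, 23.2% and 8.63%. The members' median r was 0.490 (brain), 0.626 (kidney), 0.294 (liver) and 0.548 (lung). Over the 4 tissues, 75 correlations were called after cross-by-sex means were removed and 73 within runs, with 67 in common. No share of all genes is given here for negative correlations or within runs, so those counts stand without a background.

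Fkbp5 and Zbtb16 formed the tightest pair, at r = 0.908 in lung (rho 0.900) and 0.895 in kidney (rho 0.899). They were looser in liver (0.595) and brain (0.405, and 0.135 within runs, not called). Tsc22d3 was close to Ddit4 in lung (0.855) and liver (0.819), to Sgk1 in kidney (0.840) and brain (0.767) and to Cdkn1a in lung (0.835). Ddit4 and Plekhf1 had r = 0.871 in lung, Sgk1 and Plk3 0.786 in kidney, and Sgk1 and Plekhf1 0.773 in brain. Each of these values of r above 0.7 had a two-sided permutation p of 1e-05.

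A few pairs ran against each other. Zbtb16 and Ddit4 had r = -0.397 in brain (adjusted p = 4.268e-03). In lung, Plk3 had r = -0.385 with Fkbp5 (rho -0.377, adjusted p = 0.0159) and -0.375 with Cdkn1a (rho -0.416, adjusted p = 0.0197), neither of which was called within runs. Plk3 was thus positively tied to other members in kidney, where its arrays spanned 6.93 to 11.19, and not in lung, where they spanned 7.72 to 8.73.

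**Figure D5:**
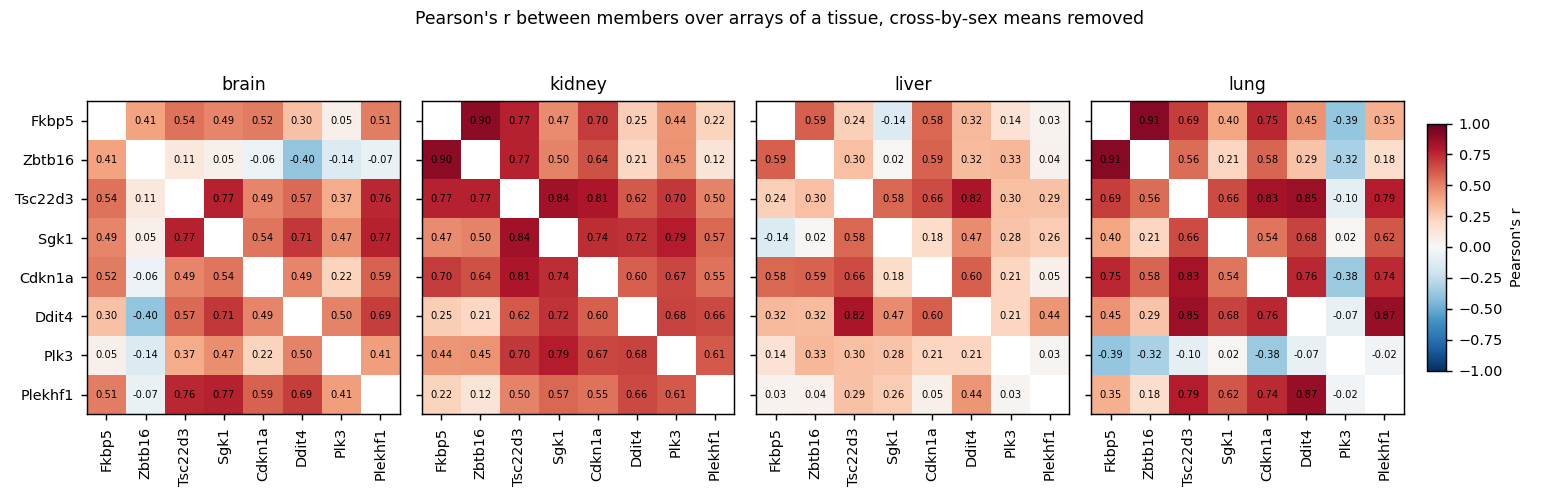
Pearson's r between pairs of the 8 genes over the arrays of brain, kidney, liver and lung (panels), after cross-by-sex means were removed, on a colour scale from -1 (blue) to 1 (red) with the value in each cell. Kidney has the most pairs in red (24 of 28 positive calls), and in lung the row of Plk3 is pale or blue while Fkbp5 and Zbtb16 reach 0.908.

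For each member, the genes with the most similar deviations were sought in the tissue where its residual spread was widest. Fkbp5 in lung (98 arrays) was followed by Hif3a (r = 0.938), Fam107a (0.918) and Map3k6 (0.915), and Zbtb16 in lung by Fkbp5 (0.908), Mertk (0.903) and Mcf2l (0.897). Sgk1 in brain (85 arrays) had Nfkbia (0.838), Pdk4 (0.832) and Plekhf1 (0.773), and Tsc22d3 in kidney had Herpud1 (0.866), Sgk1 (0.840) and Usp2 (0.823). Ddit4 in liver had Tsc22d3 (0.819), Tcim (0.811) and Nfkbia (0.810), and Plekhf1 in lung had Errfi1 (0.874), Ddit4 (0.871) and Irx1 (0.841). Plk3 in kidney had Slc25a25 (0.896), Noct (0.867) and the clock gene Per1 (0.825). Cdkn1a in liver had the more distant Nfil3 (0.760, and 0.468 within runs), 1810055G02Rik (0.739) and the clock gene Cry1 (0.679). Hif3a, Fam107a, Map3k6, Mertk, Nfkbia, Pdk4, Per1 and Errfi1 belong to the list of other glucocorticoid-induced genes. That list was chosen with earlier results of these data known, so the overlap is no independent support.

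Counted over all 8 members and 4 tissues, 426 of 792 correlations with those other glucocorticoid-induced genes were positive calls and 18 negative. In lung, 22 of 27 list genes were positively correlated with Cdkn1a and with Tsc22d3 (median r 0.600 and 0.644), and 20 each with Fkbp5 (0.566) and Ddit4 (0.506). The highest single values were 0.933 for Ddit4 with Nfkbia, which encodes an inhibitor of NF-kappaB, and 0.918 for Cdkn1a with Angptl4, a regulator of lipid uptake. In lung Plk3 had 0 positive and 7 negative calls with the same list (median r -0.224), whereas in kidney it had 19 positive and 1 negative of 26. Sgk1 had 20 positive of 26 in kidney, Ddit4 17 of 26 in liver and Plekhf1 12 of 20 in brain. The median r of all genes with a member lay between -0.051 and 0.128.

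Lists of other pathways that reach some of these genes gave lower and mixed counts. They too were chosen with earlier results of these data known. The clock gene Per1 was counted only among the glucocorticoid-induced genes. p53 targets gave 72 positive and 14 negative calls of 288, hypoxia genes 27 and 31 of 216, clock genes 52 and 38 of 304, and genes of the receptor and hormone access 69 and 45 of 440. Immediate-early genes, which respond to acute stimulation, gave 26 and 64 of 264, and 37 of the negative calls were in lung, where 8 of 9 were negatively correlated with Cdkn1a and 7 of 9 with Tsc22d3. Plk3 in lung went with them instead, with 4 positive calls of 9 and r = 0.725 with Nr4a1. Lymphocyte markers in lung were negatively correlated with the members in 27 of 32 cases: 4 of 4 for 6 members, with median r between -0.617 and -0.420. The summed lymphocyte signal ran from 8.69 to 11.29 over the lung arrays, and its part in the members' lung values was not tested. The negative counts of these lists and of the other glucocorticoid-induced genes are given without the share of all genes negatively correlated with a member.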

How the data were processed

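Total RNA of each tissue sample was hybridised to arrays. Per the submitters' processing notes, the authors made the deposited log2 signals with RMA in Affymetrix Expression Console (versions not given in the sources used here). Of 35556 transcript clusters, 21218 had 1 gene symbol in the platform annotation, 1881 several and 12457 none; 21185 matched RefSeq's GRCm38.p6 gene table. The cluster with the highest mean stood for each gene. Genes at or above the 40th percentile of mean signal in a tissue were fitted (11292 per tissue) with limma 3.58.1 in R 4.3.3: 18 cross-by-sex means, empirical Bayes with a trend, and Benjamini-Hochberg adjustment over all genes. Tissues were compared with 36 cross-by-tissue means and the animal as a random block. Correlations used Python 3.11.15, numpy 2.4.6 and scipy 1.17.1. Called means an adjusted p under 0.05. The number of arrays limits the precision. The scripts were tested on simulated data. Replicates are different animals.

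The members and gene lists were chosen with earlier results of these data known, among them the reciprocal differences of Plk3 in kidney and Plekhf1 in brain. All 8 members were to be named, with the 3 genes closest to each in its most variable tissue and up to 2 genes of a list by smallest p; other list genes were named after their values were seen. Of the listed genes, 14 were not measured. Alternatives were other filters, array weights, runs of animal numbers as a block, single arrays left out, Spearman's correlation, the mean over a symbol's clusters and, added after seeing the data, run means as the units.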

Additional observations from a re-analysis of the deposited data

Results flagged for a closer look

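In 6 of the groups of 4 to 10 arrays tested (5.77% of them), 1 array lay far from the rest by Dixon's test. Chance gives about 5%, so the number is near what chance gives. The lung Fkbp5 value of CASTxCAST replicate 4 was 11.09, with the next at 9.38; the same animal was highest in kidney. Tsc22d3 in CASTxCAST brain replicate 3 was 9.66 (next 9.25), and in CASTxPWK liver replicate 9 it was low at 10.21 (next 10.7). Cdkn1a in PWKxCAST brain replicate 6 was 10.18 (next 9.73), and in PWKxPWK liver replicate 3 it was low at 9.8 (next 10.75). Plk3 in PWKxCAST brain replicate 7 was low at 8.27 (next 8.6).

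The difference between the sexes varied among crosses by the test of the interaction for Fkbp5 in brain (adjusted p = 0.0004461, limma), Zbtb16 in brain (0.005113), Tsc22d3 in liver (0.007747) and Ddit4 in liver (0.04399). With runs as a block, the brain results were called and the liver results were not. In WSBxWSB brain, where the gap between the sexes lay, run and sex cannot be told apart. The block cannot separate them there.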

How the results depend on the processing

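No result reversed its direction. Run means as the units, an alternative chosen after seeing the data with far fewer units, left 25 of 55 calls between inbred strains, 0 of 13 between reciprocal crosses (12 at an unadjusted p under 0.05), 6 of 36 against mid-parents and 12 of 31 among crosses (limma). With runs as a random block there were 39 inbred (16 lost), 2 reciprocal, 20 mid-parent, 0 sex (5 at an unadjusted p under 0.05) and 2 interaction calls. Array weights gave 20 reciprocal, 2 sex and 20 interaction calls; the cause was not tested. Leaving out single arrays gave 0 to 2 sex calls, 11 to 15 reciprocal, 52 to 56 inbred and 35 to 38 mid-parent calls. Other filters, the mean over clusters, an additive model and Spearman's correlation kept each count within 1.5 times; the filter at the 60th percentile tested fewer members. No paired analysis was possible because different animals make up the crosses.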
